A study of Mus musculus with 5 samples.

Results

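Snai1, Snai2, Twist1, Twist2, Prrx1, Prrx2, Tcf4, Foxc2 and Sox9 are transcription factors associated with the mesenchymal state, and their mRNA levels were compared between murine lung cancer-associated fibroblasts (CAFs) with and without miR-200 overexpression. The genes were chosen by name. All 9 were found among the 21835 genes of the expression table through their mouse Ensembl identifiers, and all 9 passed the filter on low values (0.5 CPM, the normalized unit of the table, in 2 or more samples) that left 12175 genes to test. The table holds 5 RNA sequencing samples of cultured lung CAFs: 2 of CAF-vec, the control labelled as wild type and transduced with a lentiviral vector lacking the miRNA insert, and 3 of CAF-200, transduced with the same kind of vector carrying miR-200a, miR-200b and miR-429 as their natural cluster. According to the labels, G418 selection lasted over 2 weeks before RNA was isolated, so the comparison concerns established cell populations and not the first hours after the miRNAs appear. The study's methods describe triplicate RNA extractions for each group, of which 2 from CAF-vec are analysed here. Whether these came from separate transductions or cultures, and whether the CAFs were 1 clone, is not stated in the sources used here, so p-values measure only the spread between these samples, which may be technical. The age and strain of the mice from which the CAFs were isolated were not given in the sources used here.

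These factors are best known from epithelial-mesenchymal transition, in which they switch off epithelial adhesion genes and switch on genes of motile, matrix-producing cells. Snail proteins are zinc-finger repressors that bind E-box motifs, for example in the promoter of the E-cadherin gene. Twist proteins are basic helix-loop-helix factors that bind E-boxes as dimers with E proteins such as the product of Tcf4, which is also called E2-2 and is distinct from the Wnt pathway factor TCF7L2. Prrx proteins are paired-related homeobox factors of limb, craniofacial and fibroblast mesenchyme, FOXC2 is a forkhead factor of mesoderm and lymphatic vessels, and SOX9 is an HMG-box factor that drives cartilage formation. The miR-200 family is known for its reciprocal repression with the ZEB factors in epithelial cells, whereas fibroblasts are mesenchymal from the outset.

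The mature miR-200 sequences are shown first, because their seeds, bases 2 to 8 in capitals, define the matches that were counted in the 3′-UTRs of the factors. They are from RefSeq on GRCm38.p6, where the cluster lies on the minus strand of chromosome 4.
miR-200b-3p: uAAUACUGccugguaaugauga
miR-429-3p: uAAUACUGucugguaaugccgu
miR-200a-3p: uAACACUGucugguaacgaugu
miR-200b and miR-429 share a seed, and the seed of miR-200a is a different one. The mature miR-200b-3p lies at chr4:156055685-156055706, miR-200a-3p at chr4:156054911-156054932 and miR-429-3p at chr4:156053916-156053937. The table of polyadenylated RNA has no row for the 3 hairpin genes Mir200a, Mir200b and Mir429, so the overexpression itself could not be checked from these data.

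Of the 9 factors, Snai1, Snai2, Tcf4 and Foxc2 held at least 1 seed match of 7 bases in their longest annotated 3′-UTR (GENCODE M21, GRCm38). The search was for CAGTATT (miR-200b and miR-429) and CAGTGTT (miR-200a) on the transcribed strand, and a copy of one motif cannot overlap a copy of the other. The sites of the 3 factors whose surroundings are printed are shown with the match in capitals and 8 bases on either side, because they are the places where the overexpressed miRNAs could pair with these transcripts.
Snai1, miR-200b and miR-429: ctacccctCAGTATTcatgaggt
Snai2, miR-200b and miR-429: caaaggaaCAGTATTtcttctta
Snai2, miR-200a: ggcgcaacCAGTGTTtactcaaa
Foxc2, miR-200a: tgtgatctCAGTGTTgtatttac
The Snai1 match lies at chr2:167542279-167542285 on the plus strand, at base 196 of a 3′-UTR of 731 bases. The Snai2 matches lie on the plus strand at chr16:14708723-14708729 and chr16:14708307-14708313, at bases 427 and 11 of a 3′-UTR of 1089 bases. The Foxc2 match lies on the plus strand at chr8:121118847-121118853, at base 748 of a 3′-UTR of 796 bases and thus close to its end. In its 6007 bases, Tcf4 held CAGTATT at 1 place and CAGTGTT at 2. No match of 7 bases was found in the longest 3′-UTRs of Twist1 (700 bases), Twist2 (1885 bases), Prrx1 (4891 bases), Prrx2 (321 bases) or Sox9 (2250 bases), which says only that these letters are not in these windows.

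Such matches are common. A match to either seed was present in the longest 3′-UTR of 30.3% of the 12060 tested genes with an annotated 3′-UTR, 15.7% for miR-200b and miR-429 and 20.9% for miR-200a. Zeb1 and Zeb2, the classical miR-200 targets, each held CAGTATT at 5 places and CAGTGTT at 4, in 3′-UTRs of 2401 and 4941 bases. An example of each kind from Zeb2, on the minus strand at chr2:44988174-44988180 and chr2:44987826-44987832, is shown to set the sites above beside those of an established target.
Zeb2, miR-200b and miR-429: ccatacatCAGTATTttattatt
Zeb2, miR-200a: tccttgtaCAGTGTTcagagggt
A match is a description of sequence and was not tested for function.

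The 9 factors did not move together after miR-200 overexpression. Twist2 fell to 0.609 of its CAF-vec level and Sox9 rose 1.42-fold, each at an adjusted p under 0.05. None of the 9 passed the thresholds the study used, an adjusted p under 0.01 together with an absolute log2 fold-change over 1. All tests were limma on log2(CPM + 0.5) with Benjamini-Hochberg adjustment over the 12175 genes tested, and log2 fold-changes are CAF-200 minus CAF-vec on that scale. Of all genes tested, 4.72% passed both thresholds, 2.35% as lower and 2.37% as higher. At an adjusted p under 0.05 alone, 18.6% were lower and 11.9% higher, shares of the main fit that changed with the normalization and the samples kept. The 2 factors called at an adjusted p under 0.05 were 22.2% of the 9, beside 30.5% of all genes tested, so their share did not exceed the background with these settings. At an unadjusted p under 0.05 there were 4 factors, namely Snai1, Twist2, Foxc2 and Sox9, beside 44.9% of all genes tested, so this share too was that of the background. The first comparison depended on the normalization. After centring each sample on its median, 1 factor was lower and 3 were higher at an adjusted p under 0.05, beside 1756 and 1872 of the 12175 genes. The fold-change was positive for 5 factors and negative for 4, with a median log2 fold-change of 0.098 beside -0.094 for all genes tested. Over all alternatives run, the log2 fold-change of Twist2 ran from -0.76 to -0.61 and that of Sox9 from 0.44 to 0.61. Where both CAF-vec samples were kept, the adjusted p was at most 0.0422 for Twist2. For Sox9 it was at most 0.124, reached with same-numbered samples fitted as a block.

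**Figure D1:**
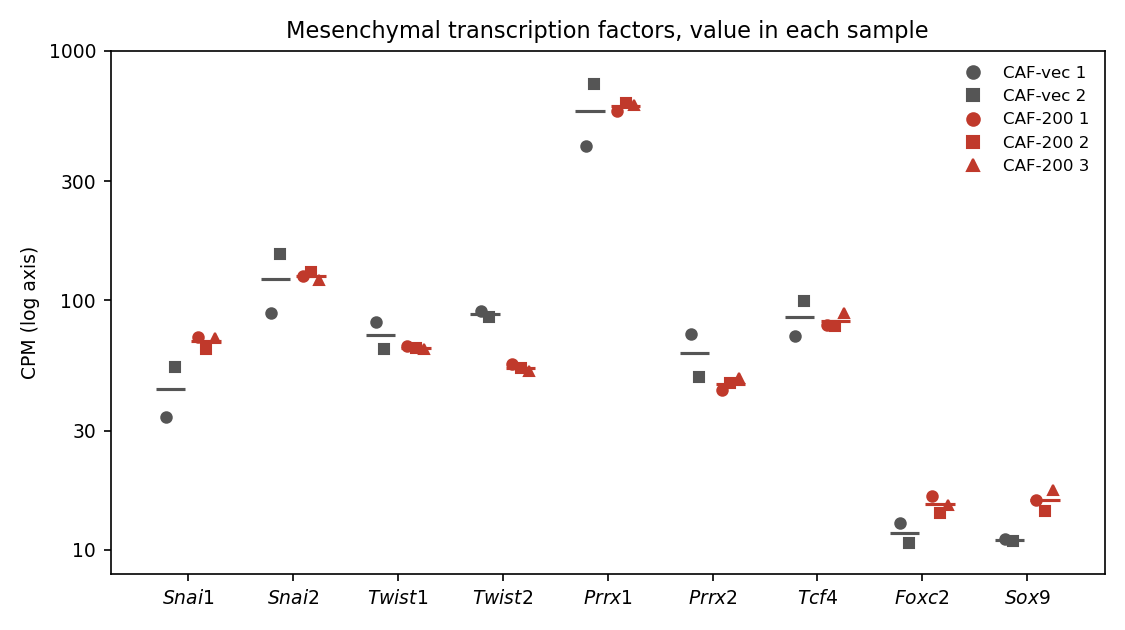
Expression of the 9 mesenchymal transcription factors in each sample, in CPM on a log axis, with the genes side by side. Points are samples and short horizontal lines are group means for CAF-vec (n = 2) and CAF-200 (n = 3). The CAF-200 samples of Twist2 sit between 52.1 and 55.6 CPM, below both CAF-vec samples at 86.1 and 91.0 CPM, whereas those of Snai2 and Prrx1 sit between widely separated CAF-vec samples.

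The CAF-vec samples differed from each other more than the CAF-200 samples did, which bears on each comparison that follows. Across all tested genes, the standard deviation of the log2 difference was 0.49 between CAF-vec 1 and CAF-vec 2 and 0.192 to 0.204 between the CAF-200 samples. Among the 9 factors, the median absolute log2 difference between the CAF-vec samples was 0.465, against 0.282 over all tested genes, while the median log2 range of the CAF-200 samples was 0.157, against 0.141. CAF-vec 2 held 1.58 times as much Snai1, 1.73 times as much Snai2 and 1.77 times as much Prrx1 as CAF-vec 1, but only 0.668 times as much Prrx2. These 4 genes exceeded an absolute log2 difference of 0.5 between the CAF-vec samples, as did 24.8% of all tested genes. Sox9 and Twist2 were the steadiest of the 9 factors in CAF-vec, with ratios of CAF-vec 2 to CAF-vec 1 of 0.989 and 0.946. The smaller spread in CAF-200 came with a feature of the deposited values: every gene listed at 0 in 1 CAF-200 sample was listed at 0 in all 3, which was not so in CAF-vec. Its part in the p-values was not tested.

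**Figure D2:**
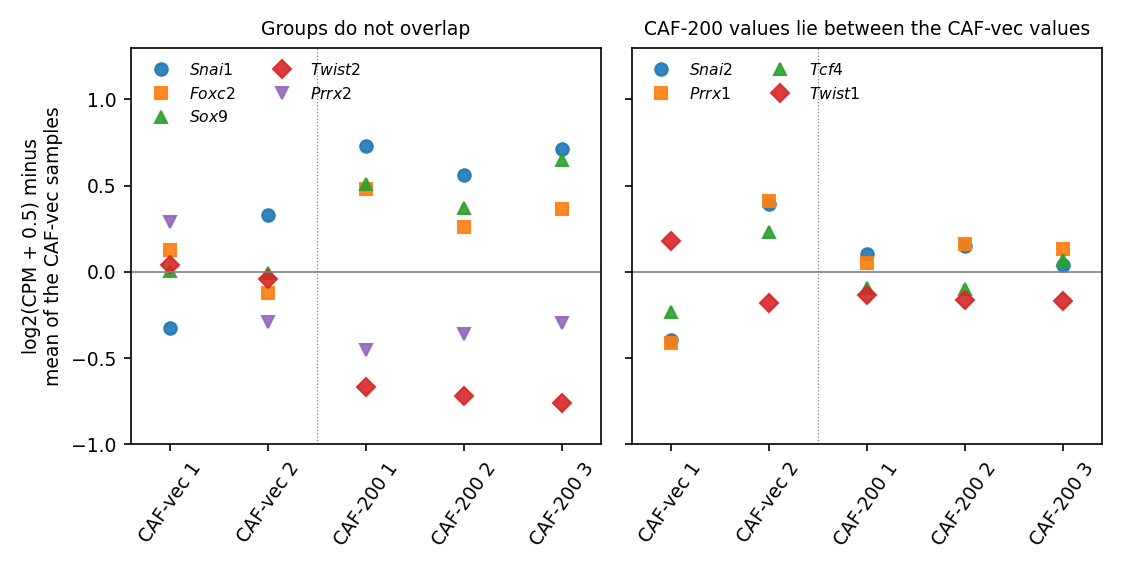
Deviation of each factor from its CAF-vec mean in every sample, as log2(CPM + 0.5) minus the mean of both CAF-vec samples. The left panel holds the 5 factors whose groups did not overlap, with Twist2 lowest and Snai1 highest in CAF-200, and the right panel holds the 4 factors whose CAF-200 values all lay between those of CAF-vec 1 and CAF-vec 2.

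The Snail genes encode the repressors that bind the E-boxes of the E-cadherin gene. Snai1 (ENSMUSG00000042821, chr2:167538195-167542814 on GRCm38, plus strand) measured 34.1 and 54.0 CPM in CAF-vec and 71.4, 63.7 and 70.6 CPM in CAF-200. All CAF-200 samples were above both CAF-vec samples, with means of 68.6 ± 4.24 CPM (SD, n = 3) and 44.1 ± 14.1 CPM (SD, n = 2). The log2 fold-change of 0.67 (SE 0.198, 95% confidence interval 0.18 to 1.16, or 1.59-fold) had an adjusted p of 0.0518, just outside the threshold. The adjusted p was 0.0442 after centring each sample on its median and 0.0453 after quantile normalization, but 0.146, 0.121 and 0.162 without CAF-200 1, 2 and 3. CAF-vec 1 widened the difference and CAF-vec 2 narrowed it, since the log2 fold-change was 0.34 without CAF-vec 1 and 0.99 without CAF-vec 2. A fit with 1 CAF-vec sample holds no spread of CAF-vec, so only fold-changes are given for such fits.

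Snai2 (ENSMUSG00000022676, chr16:14705852-14709385, plus strand), which encodes Slug, measured 89.0 and 153.7 CPM in CAF-vec and 125.5, 129.8 and 120.4 CPM in CAF-200. The CAF-200 values lay between those of the CAF-vec samples. The log2 fold-change was 0.10 (SE 0.227, 95% confidence interval -0.46 to 0.66, adjusted p = 0.757), an interval wide enough to hold either a rise or a fall of moderate size. It was -0.29 without CAF-vec 1 and 0.49 without CAF-vec 2. The sign for Snai2 thus depended on which CAF-vec sample was kept. Both Snail genes hold seed matches in their 3′-UTRs, and neither was called lower with all 5 samples.

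Twist1 and Twist2 encode closely related basic helix-loop-helix factors of mesoderm and dermis. Twist2 (ENSMUSG00000007805, chr1:91801461-91848028, plus strand) measured 91.0 and 86.1 CPM in CAF-vec and 55.6, 53.5 and 52.1 CPM in CAF-200. Both groups were tight and far apart, with means of 88.6 ± 3.48 CPM (SD, n = 2) and 53.7 ± 1.76 CPM (SD, n = 3). The fall of Twist2 by 0.72 on the log2 scale (SE 0.0832, 95% confidence interval of the log2 fold-change -0.92 to -0.51, adjusted p = 0.00466) met the stricter p threshold but not the fold threshold. The stricter p threshold was not met without CAF-200 1, 2 or 3 (adjusted p = 0.0358, 0.0394 and 0.0422) or with same-numbered samples fitted as a block (0.04). Twist2 ranked 1192 among the 12175 tested genes when ordered by fall, so many genes fell further. An annotated gene on the opposite strand, Gm29100, overlaps exons of Twist2 and has no row in the table. The library kit was a stranded one, but whether the counting used strand was not given in the sources used here, so reads of the 2 genes may not be separated.

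Twist1 (ENSMUSG00000035799, chr12:33957671-33959829, plus strand) measured 81.7 and 63.6 CPM in CAF-vec and 65.6, 64.3 and 64.0 CPM in CAF-200. CAF-vec 2 and the 3 CAF-200 samples were nearly level, and CAF-vec 1 stood above them. The log2 fold-change was -0.16 (SE 0.123, 95% confidence interval -0.46 to 0.15, adjusted p = 0.361), and it was 0.022 without CAF-vec 1 and -0.34 without CAF-vec 2. The E protein Tcf4 (ENSMUSG00000053477, chr18:69343356-69689079, plus strand), a dimer partner of Twist proteins, measured 72.0 and 99.6 CPM in CAF-vec and 79.4, 79.0 and 88.8 CPM in CAF-200. Its CAF-200 values lay between the CAF-vec values. The log2 fold-change of Tcf4 was -0.04 (SE 0.155, 95% confidence interval -0.43 to 0.34, adjusted p = 0.848), and its sign turned to 0.05 when the samples were quantile normalized or centred on their medians. Without CAF-vec 1 it was -0.27, and without CAF-vec 2 it was 0.19.

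The Prrx genes encode homeobox factors of embryonic and fibroblast mesenchyme. Prrx1 (ENSMUSG00000026586, chr1:163245119-163313710, minus strand) was the most abundant of the 9 in CPM, with 415.5 and 736.4 CPM in CAF-vec and 573.2, 617.6 and 607.1 CPM in CAF-200. Again the CAF-200 samples lay between the CAF-vec samples, and the log2 fold-change was 0.11 (SE 0.243, 95% confidence interval -0.49 to 0.72, adjusted p = 0.734). Its sign depended on which CAF-vec sample was kept, at -0.30 without CAF-vec 1 and 0.53 without CAF-vec 2. Prrx2 (ENSMUSG00000039476, chr2:30834972-30881251, plus strand) measured 73.6 and 49.1 CPM in CAF-vec and 43.7, 46.8 and 48.8 CPM in CAF-200. The CAF-200 samples of Prrx2 were all below both CAF-vec samples, but CAF-vec 2 exceeded the highest of them only narrowly. The log2 fold-change was -0.37 (SE 0.179, 95% confidence interval -0.81 to 0.07, adjusted p = 0.162), and it was -0.082 without CAF-vec 1 and -0.66 without CAF-vec 2.

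Foxc2 and Sox9 were among the 3 least abundant factors per kilobase of exon. Foxc2 (ENSMUSG00000046714, chr8:121116171-121118895, plus strand), a forkhead gene required for lymphatic valves, measured 12.8 and 10.7 CPM in CAF-vec and 16.5, 14.1 and 15.2 CPM in CAF-200. The groups did not overlap, and the log2 fold-change of 0.37 (SE 0.123, 95% confidence interval 0.06 to 0.67) had an adjusted p of 0.0709. It was 0.46 with an adjusted p of 0.0279 after centring on sample medians, but the adjusted p rose to 0.218 without CAF-200 1. The log2 fold-change was 0.49 without CAF-vec 1 and 0.24 without CAF-vec 2. Foxc2 lies within Gm20388 on the same strand, with no shared exon, and that gene was listed at 35.1 and 17.1 CPM in CAF-vec and 37.3, 0.272 and 31.7 CPM in CAF-200. CAF-200 2, which had little Gm20388, also had the lowest Foxc2 of the CAF-200 samples, and whether reads were split between these genes was not tested.

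Sox9 (ENSMUSG00000000567, chr11:112782224-112787760, plus strand), the regulator of cartilage differentiation, measured 11.0 and 10.9 CPM in CAF-vec and 15.8, 14.3 and 17.4 CPM in CAF-200. All CAF-200 samples were above both CAF-vec samples, which were nearly equal. The log2 fold-change was 0.51 (SE 0.113, 95% confidence interval 0.23 to 0.79, adjusted p = 0.0227), on means of 11.0 ± 0.0834 CPM (SD, n = 2) and 15.9 ± 1.57 CPM (SD, n = 3). The call rested on all 3 CAF-200 samples, as the adjusted p was 0.0931, 0.0589 and 0.0965 without CAF-200 1, 2 and 3, although the log2 fold-change stayed between 0.44 and 0.58.

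**Figure D3:**
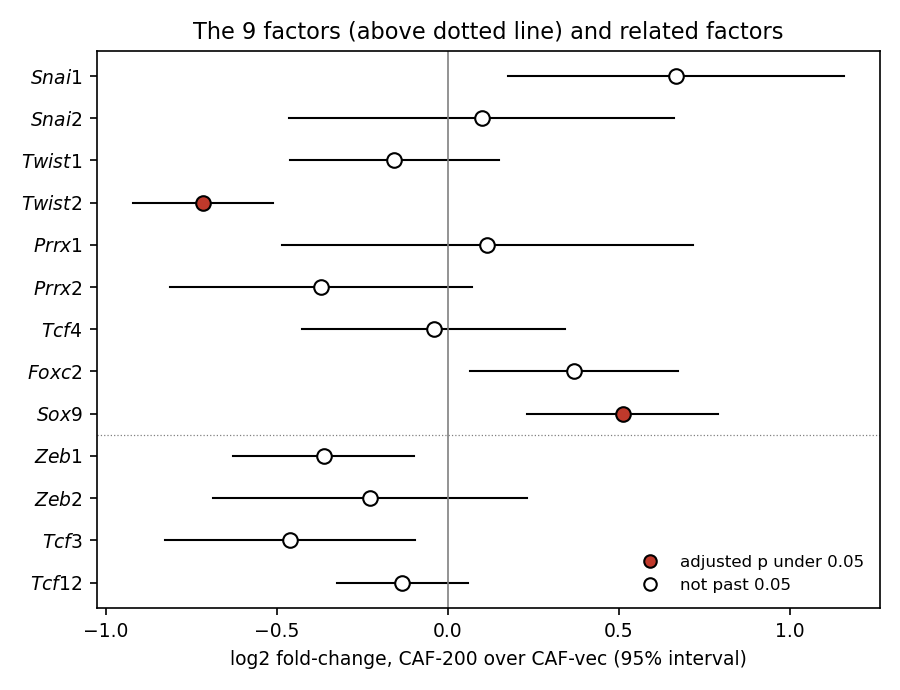
Log2 fold-change (CAF-200 minus CAF-vec, on log2(CPM + 0.5)) of the 9 factors and of related factors below the dotted line, with bars for the 95% confidence interval and filled points for an adjusted p under 0.05. Twist2 (-0.92 to -0.51) and Sox9 (0.23 to 0.79) are filled, the intervals of Snai1 and Foxc2 also lie above 0, and those of Snai2, Twist1, Prrx1, Prrx2 and Tcf4 include it.

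Counted by overlap, CAF-200 was below CAF-vec in all samples for 2 factors, Twist2 and Prrx2, and above it for 3, Snai1, Foxc2 and Sox9. These 5 of 9 stand beside 61.6% of all genes tested whose groups did not overlap, 37.3% lower and 24.3% higher. For Snai2, Prrx1, Tcf4 and Twist1, the 3 CAF-200 values all lay between the 2 CAF-vec values, an arrangement found in 14.9% of all genes tested.

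Set beside the sequences above, the 4 factors with a seed match had log2 fold-changes of 0.67 (Snai1), 0.10 (Snai2), -0.04 (Tcf4) and 0.37 (Foxc2), and none was called lower with all 5 samples. The signs for Snai2 and Tcf4 depended on which CAF-vec sample was kept, while those for Snai1 and Foxc2 stayed positive. Twist2, the factor called lower, held no match in any of its annotated 3′-UTRs. Across the table, genes with a match had a median log2 fold-change of -0.066 (n = 3650) and genes without one -0.11 (n = 8410). The share lower at an adjusted p under 0.05 was 17.2% with a match and 19.4% without. With the shorter match of 6 bases, Prrx1 and Sox9 joined the factors with a site, and 6 of 9 then held one, beside 54.7% of tested genes with an annotated 3′-UTR. For Zeb1, the classical target, the values were 43.5 and 50.7 CPM in CAF-vec and 37.8, 37.5 and 34.1 CPM in CAF-200, with no overlap, a log2 fold-change of -0.36 (SE 0.107) and an adjusted p of 0.0504. The adjusted p was 0.134, 0.145 and 0.183 without CAF-200 1, 2 and 3. It was 0.137 after centring, 0.152 after quantile normalization and 0.222 with same-numbered samples fitted as a block. The log2 fold-change of Zeb1 was -0.47 without CAF-vec 1 and -0.25 without CAF-vec 2. Zeb2 measured 46.2 and 29.8 CPM in CAF-vec and 31.9, 31.8 and 31.1 CPM in CAF-200, which overlapped, with a log2 fold-change of -0.23 (SE 0.186) and an adjusted p of 0.374. Its log2 fold-change was -0.54 without CAF-vec 2 and 0.083 without CAF-vec 1.

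Levels of different genes were compared per kilobase of the union of their annotated exons. In CAF-vec the order of the mean levels was Snai2 (60.0 CPM per kb), Prrx1 (52.1), Twist1 (44.6), Prrx2 (31.3), Twist2 (27.9), Snai1 (27.2), Foxc2 (4.30), Tcf4 (3.13) and Sox9 (2.65). The CAF-vec samples of neighbours in this order overlapped for Snai2 and Prrx1, Prrx1 and Twist1, Prrx2 and Twist2, Twist2 and Snai1, and Tcf4 and Sox9. In CAF-200 the order of the levels per kb was Snai2 (62.0 CPM per kb), Prrx1 (54.2), Snai1 (42.3), Twist1 (39.7), Prrx2 (23.7), Twist2 (16.9), Foxc2 (5.60), Sox9 (3.84) and Tcf4 (3.01), and the only neighbours that overlapped were Snai1 and Twist1. By mean level, Snai1 thus moved from the sixth place to the third. However, its CAF-vec samples (21.1 to 33.3 CPM per kb) spanned those of Twist2 (27.1 to 28.7), and in CAF-200 it overlapped Twist1. Sox9 and Tcf4, which overlapped in CAF-vec, were separate in CAF-200. The order depends on the length used: per kilobase of the longest coding transcript, Prrx1 was the highest at 88.2 CPM per kb in CAF-vec and 91.8 in CAF-200, and Tcf4, with an exon union of 27.4 kb but a longest coding transcript of 8.58 kb, was at 10.0 and 9.61.

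Each pair of paralogues was then compared within a sample, which removes what the genes of a sample share. The ratio of Twist1 to Twist2 in CPM was 0.898 and 0.741 in CAF-vec and 1.18, 1.20 and 1.23 in CAF-200. The ratio was higher in all 3 CAF-200 samples, but a ratio of CPM does not rank the genes, since the exons of Twist2 are longer (3.17 kb against 1.63 kb) and Twist1 had the higher level per kb in both groups. The ratio of Snai1 to Snai2 was 0.387 and 0.354 in CAF-vec and 0.571, 0.493 and 0.588 in CAF-200, again higher in all 3 CAF-200 samples. On the log2 scale, the ratios moved by 0.56 for Twist1 over Twist2 and by 0.57 for Snai1 over Snai2. Each gave p = 0.1 in an exact two-sided permutation test over the samples, adjusted to 0.15 over the 3 pairs, and 0.1 is the smallest p that 2 against 3 samples allow. The ratio of Prrx1 to Prrx2 was 5.61 in CAF-vec 1 and 14.8 in CAF-vec 2, and 13.0, 13.1 and 12.3 in CAF-200. CAF-vec 2 thus stood with the CAF-200 samples and CAF-vec 1 stood apart, and the log2 difference of 0.49 had an exact permutation p of 0.6. Without CAF-vec 1 the log2 difference in Prrx1 over Prrx2 was -0.22. For the other 2 pairs the difference kept its sign with any 1 sample left out, at 0.50 to 0.65 for the Snail pair and 0.42 to 0.70 for the Twist pair.

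**Figure D4:**
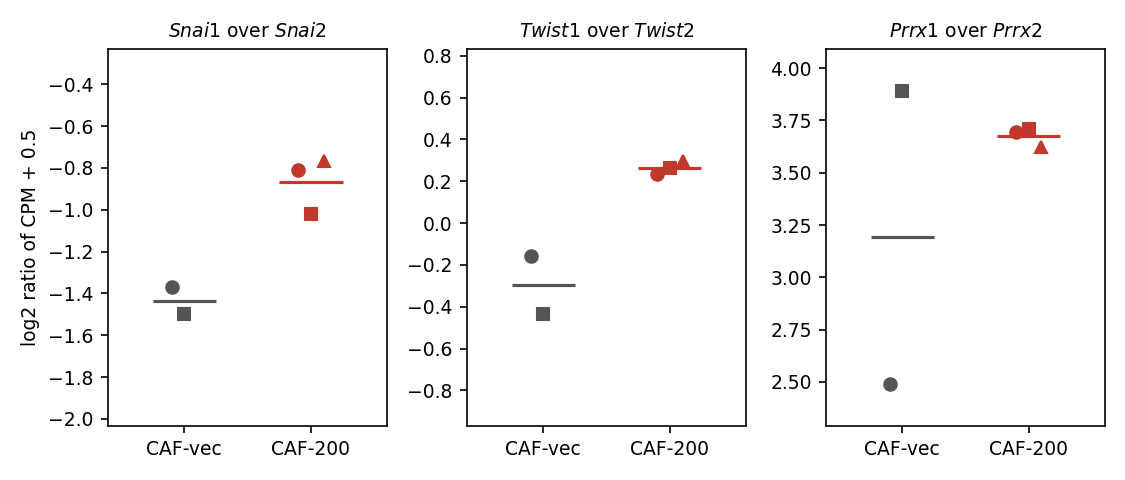
Log2 ratio between paralogues in each sample, with circles, squares and triangles for replicates 1, 2 and 3. Each panel spans the same number of log2 units on its own axis. The Snai1 over Snai2 and Twist1 over Twist2 ratios do not overlap between the groups, with CAF-200 higher, and the Prrx1 over Prrx2 ratio of CAF-vec 1 (2.49) stands below all the others (3.62 to 3.89).

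The genes whose profiles across the 5 samples were closest to those of Twist2 and Snai1, the 2 factors with the largest absolute log2 fold-change, were found by the root mean square difference of log2(CPM + 0.5) after centring each gene on its mean. For Twist2 these were Csnk1g2 (difference 0.00477), which encodes a casein kinase 1 isoform, P3h2 (0.0155), which encodes a collagen prolyl 3-hydroxylase, and Hint2 (0.0198), which encodes a mitochondrial nucleotide hydrolase. Csnk1g2 measured 291.4 and 274.9 CPM in CAF-vec and 179.1, 172.1 and 168.3 CPM in CAF-200. For Snai1 the closest genes were Zfp934 (difference 0.0447), Bgn (0.0454), which encodes the matrix proteoglycan biglycan, and Mrpl32 (0.0470), which encodes a mitochondrial ribosomal protein. Bgn measured 2766 and 4038 CPM in CAF-vec and 5385, 5123 and 5455 CPM in CAF-200, and like Snai1 was lower in CAF-vec 1 than in CAF-vec 2. With 5 samples in 2 groups, such likeness follows the difference between the groups and between the CAF-vec samples.

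The other factors of mesenchymal identity were also mixed. Of 24 related factors, 19 were tested, 5 were lower and 4 higher at an adjusted p under 0.05, against 18.6% and 11.9% of all genes tested, and their median log2 fold-change was -0.15 beside -0.094 for all genes tested. Only Foxd1, a forkhead gene of stromal progenitors, passed both thresholds. It measured 6.05 and 3.92 CPM in CAF-vec and 0.951, 0.814 and 0.863 CPM in CAF-200, with no overlap, and fell by 1.97 in log2 units (SE 0.197, adjusted p = 0.00343). Meox1 (-0.96, adjusted p = 0.0330), Foxq1 (-0.80, adjusted p = 0.0174) and Msx1 (-0.47, adjusted p = 0.0208) were among the others that fell, by log2 fold-change. Those that rose were Runx1 (0.90, adjusted p = 0.00413), Hmga2 (0.67, adjusted p = 0.0479), Foxf2 (0.55, adjusted p = 0.0228) and Tbx18 (0.46, adjusted p = 0.0199). Snai3, the remaining Snail gene, was not tested, being listed at 0 in each CAF-vec sample and at no more than 0.0511 CPM elsewhere.

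Twist function depends on E proteins and on the Id proteins that sequester them. Of these 6 genes, all tested, only Id3 was called at an adjusted p under 0.05, where 30.5% of all genes tested were called. Id3 rose by a log2 fold-change of 0.47 (adjusted p = 0.0152), measuring 208.4 and 195.0 CPM in CAF-vec and 286.7, 282.3 and 270.2 CPM in CAF-200. Id1 (-0.04, adjusted p = 0.915) and Id4 (-0.08, adjusted p = 0.619) were slightly lower and not called. Id2 measured 29.2 and 60.1 CPM in CAF-vec and 82.0, 75.7 and 78.0 CPM in CAF-200, and its difference of 0.90 on the log2 scale did not pass (adjusted p = 0.0641). The E protein genes Tcf3 (log2 fold-change -0.46, adjusted p = 0.0632) and Tcf12 (-0.13, adjusted p = 0.226) were not called. Tcf3, which encodes E12 and E47, was at 189.3 and 139.0 CPM in CAF-vec and 124.4, 113.2 and 115.7 CPM in CAF-200, without overlap. Of 14 genes for Snail co-repressors and for the turnover of Snail proteins, all tested, 2 rose and 1 fell at an adjusted p under 0.05, where 30.5% of all genes tested were called. Ezh2 (0.89, adjusted p = 0.00720) and Suz12 (0.40, adjusted p = 0.0177), which encode Polycomb subunits, rose, and Ajuba (-0.67, adjusted p = 0.00884), which encodes a LIM protein that joins Snail to its co-repressors, fell, by log2 fold-change.

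The genes that these factors act on were described in 3 lists. Of 22 epithelial genes, among them the Snail target Cdh1, only Esrp2, an epithelial splicing factor gene, passed the filter on low values. Esrp2 measured 0.240 and 0.660 CPM in CAF-vec and 0.942, 1.18 and 1.15 CPM in CAF-200, without overlap, and its adjusted p was 0.0516 at a log2 fold-change of 0.78. No epithelial gene exceeded 1.18 CPM in any sample, and 5 were listed at 0 in all. Of 22 mesenchymal effector genes, 21 were tested, 4 rose past both thresholds, and at an adjusted p under 0.05 alone 7 rose and 1 fell, where 2.37% of all genes tested were higher past both thresholds and, at an adjusted p under 0.05, 11.9% were higher and 18.6% lower. Without any 1 CAF-200 sample, neither Foxd1 nor any of these 4 kept the call past both thresholds. Among the 4 were Tagln (log2 fold-change 2.94, adjusted p = 0.00182) and Acta2 (2.63, adjusted p = 0.00123), which encode contractile proteins, and Thy1 (1.46, adjusted p = 0.00290), which encodes a fibroblast surface protein. The study reports the opposite for α-SMA, the protein of Acta2, by immunocytochemistry. It also reports lower mRNA of most CAF markers by RT-qPCR. The reason for the difference was not tested. Cdh2, which encodes N-cadherin and is a Twist-associated gene, rose by a log2 fold-change of 0.84 (adjusted p = 0.0118), and Mmp2 fell by 0.51 (adjusted p = 0.0153). The median log2 fold-change of this list was 0.13, beside -0.094 for all genes tested. Of 17 partners and cartilage targets of SOX9, 6 were tested and none passed at an adjusted p under 0.05 in limma. The 2 furthest from 0 were Col27a1 (log2 fold-change -0.75, adjusted p = 0.0556) and Col9a3 (-0.61, adjusted p = 0.0766), both at or under 1.39 CPM. The list went both ways, as Col2a1 (log2 fold-change 0.53, adjusted p = 0.183), Sox5 (0.40, adjusted p = 0.190) and Sox8 (0.29, adjusted p = 0.221) were higher without passing the test. Below the filter, Col11a1 was listed at 0 and 0.00975 CPM in CAF-vec and measured 0.411, 0.354 and 0.620 CPM in CAF-200, and Acan was listed at 0 in CAF-vec and at 0.0306 to 0.112 CPM in CAF-200. Matn3 went the other way, at 0.244 and 0.279 CPM in CAF-vec and 0.0909, 0.122 and 0.132 CPM in CAF-200. None of these low values was tested.

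**Figure D5:**
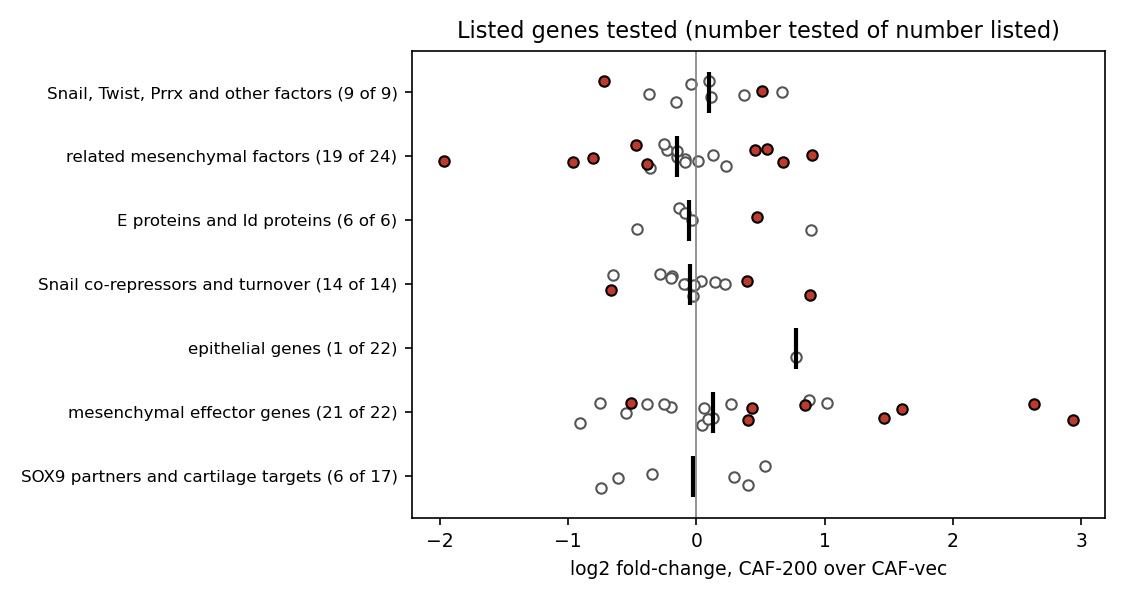
Log2 fold-change of each tested gene by list, with the number tested of the number listed. Filled red points have an adjusted p under 0.05 and each bar is the list median. The 9 factors have a median of 0.098 with Twist2 and Sox9 filled, and the highest points are Tagln (2.94) and Acta2 (2.63) among the mesenchymal effector genes.

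Markers were used to check the labelled cell type. All 9 fibroblast markers were tested, and their summed level ranged over 7457 to 14150 CPM for CAF-vec and 6609 to 7302 CPM for CAF-200, with Dcn (log2 fold-change 2.75), Lum (2.82) and Thy1 (1.46) higher past both thresholds. Without any 1 CAF-200 sample, at most 1 gene of the whole table passed both thresholds, so marker calls by that rule rest on all 3. The list went both ways, with a lower log2 fold-change for 5 of the 9, among them the abundant Col1a1 (-0.91, adjusted p = 0.0982) and Col1a2 (-0.75, adjusted p = 0.112), whose CAF-200 values all lay below CAF-vec. The 7 epithelial markers summed to 0.0843 to 0.228 CPM for CAF-vec and 0.0334 to 0.421 CPM for CAF-200, with 3 at 0 in all samples, and the 5 endothelial markers to 0.167 to 1.06 CPM and 0.223 to 0.508 CPM. The 5 leukocyte markers summed to 8.34 to 9.31 CPM for CAF-vec and 12.2 to 12.8 CPM for CAF-200, and Lyz2 rose by 1.91 (log2, adjusted p = 0.00395) while Cd68 (-0.14, adjusted p = 0.758) and Csf1r (-0.46, adjusted p = 0.250) had lower values that did not pass and Adgre1, a defining macrophage gene, was at 0 in all samples. The 5 pericyte and smooth muscle markers summed to 8.63 to 11.9 CPM and 7.54 to 7.97 CPM. The 4 mesothelial markers summed to 5.92 to 6.98 CPM for CAF-vec and 1.11 to 1.62 CPM for CAF-200. Most of this was Msln, which fell by 1.97 (log2, adjusted p = 0.00290). Lrrn4 was at 0 in all samples, and Wt1 and Upk3b were at or under 0.209 CPM. The part of a changed make-up of the cultures in the values of the 9 factors was not tested, and in such bulk samples fewer cells of a type and less RNA per cell cannot be told apart.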

How the data were processed

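Poly(A) RNA of 5 murine lung CAF cultures was prepared with a stranded kit and sequenced as paired ends. The submitters' processing notes name FastQC, cutadapt, Trimmomatic, STAR, RSEM and edgeR and the build GRCm38 (mm10), with no roles. The authors deposited 1 table of normalized CPM whose name refers to TMM scaling. Column sums differed little (999956 to 1000111), and low values are not whole multiples of a step, so the depth is unknown and no counting interval was given. In the CAF-200 columns, 0 genes were at 0 in some but not all samples, and 788 to 1100 genes a sample held values above 0 but under 0.001 CPM, against 0 genes in CAF-vec. All 5 columns were matched to samples by title, leaving 0 unmapped.

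Symbols were assigned to 21795 of 21835 Ensembl identifiers from a gene name table, and positions, exons and 3′-UTRs came from GENCODE M21. On log2(CPM + 0.5), each gene reaching 0.5 CPM in 2 or more samples was tested by limma's trended moderated fit (version 3.58.1, R 4.3.3) without a replicate block, and p-values were adjusted over all tested genes. The scripts were tested on simulated data. Paralogue ratios were compared with an exact permutation test over all arrangements of the samples, and figures were drawn with matplotlib 3.10.9. The genes named were the 9 factors, the genes of each list past both thresholds, the 2 of each list with the largest absolute log2 fold-change, the E proteins, Zeb1 and Zeb2, and the 3 genes nearest in profile to 2 factors. A few listed genes that the rule covers are not reported here. Further genes called at an adjusted p under 0.05, Snai3, the Id genes, further SOX9 partners and cartilage targets and the markers were named after their values were seen. The factors, lists and tests were chosen with earlier results of these data known. Alternatives were other pseudocounts, filters, normalizations, thresholds and 3′-UTR matches, no variance trend, a replicate block and each sample left out.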

Additional observations from a re-analysis of the deposited data

How the results depend on the processing

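Twist2 stayed lower at an adjusted p under 0.05 in every alternative that kept both CAF-vec samples. Its sign and those of Snai1, Foxc2, Sox9, Prrx2 and Zeb1 never turned in any alternative. Tcf4 reversed to 0.052 under quantile normalization and 0.055 under centring on sample medians, which moved the median of all genes from -0.094 to -0.016 and 0.0027. With these normalizations 3 factors rather than 1 were higher at an adjusted p under 0.05 (Snai1 and Foxc2 joined Sox9). By the same rule, 1786 genes were higher and 1893 lower with quantile normalization, and 1872 and 1756 with centring. The main fit had 1446 higher and 2265 lower. Centring called 228 genes lower and 365 higher past both thresholds, beside 286 and 289 without it. With log2 fold-changes beyond 0.5 at an adjusted p under 0.01, 1 factor was lower (Twist2), and 8 rather than 5 listed genes, markers aside, passed. Leaving out 1 sample at a time gave 1 to 4 factors lower and 0 to 4 higher at an adjusted p under 0.05 and 0 to 10 listed genes past both thresholds. The log2 fold-change then ran from -0.27 to 0.19 for Tcf4, -0.29 to 0.49 for Snai2, -0.34 to 0.022 for Twist1, -0.30 to 0.53 for Prrx1 and -0.54 to 0.083 for Zeb2. The log2 ratio difference ran from -0.22 to 1.19 for Prrx1 over Prrx2 and 0.42 to 0.70 for Twist1 over Twist2. Over the whole table, 0 genes were lower and 0 to 1 higher past both thresholds without any 1 CAF-200 sample, beside 286 and 289 with all 5 samples. With 1 CAF-vec sample left, it is assumed to vary like the CAF-200 samples, although the CAF-vec samples differed more. Only fold-changes are therefore given for those fits. The cause of these shifts was not tested. The labels share only the replicate numbers 1 and 2: the deviations of same-numbered samples correlated at 0.25 and 0.13, and those of CAF-vec 2 with CAF-200 3, which share no number, at 0.12, but with 2 CAF-vec samples these values are not independent and do not settle whether the numbers pair the samples. With the replicate block, which leaves CAF-200 3 out of the fold-change, 0 factors were higher at an adjusted p under 0.05 (adjusted p = 0.124 for Sox9 at 0.44, 0.108 for Snai1 and 0.172 for Foxc2), 3 listed genes passed both thresholds, and 70 genes were lower and 101 higher. No count test with edgeR was run, since only 17.6% to 37.5% of values from 0.005 to 1 CPM lay within 0.05 of a whole multiple of the commonest low value. The number of factors with a seed match was 4 with any annotated 3′-UTR and 6 with 6 bases.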

Other observations

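The families of Foxc2 and Sox9 were looked at after their values were seen, with no test of the families. Of 44 Fox genes in the table, 22 were tested, 3 fell and 3 rose at an adjusted p under 0.05 (limma), where 18.6% of all genes tested were lower and 11.9% higher, and only Foxd1 passed both thresholds. The median log2 fold-change of the tested Fox genes was -0.047, beside -0.094 for all genes tested. Among them Foxm1, a regulator of mitotic genes, measured 88.7 and 84.7 CPM in CAF-vec and 119.9, 116.4 and 116.1 CPM in CAF-200, a rise of 0.44 on the log2 scale (adjusted p = 0.0140). Foxo4, a FOXO factor regulated by AKT, measured 35.8 and 26.5 CPM in CAF-vec and 17.3, 16.6 and 16.7 CPM in CAF-200, a fall of the log2 level by 0.85 (adjusted p = 0.0105). Of 19 Sox genes, 7 were tested, their median log2 fold-change was 0.29, and Sox9 was the only one called in either direction.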
